A study of Mus musculus with 208 samples.

Results

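The genes described here are 8 DNA repair genes known to modify how far a CAG repeat lengthens in somatic cells: Msh3, Msh6, Mlh3, Pms1, Pms2, Fan1, Lig1 and Ogg1. They were taken by symbol from a list, not by any measured value, and all 8 were found among the 39179 Ensembl gene IDs of the deposited tables. The data are mRNA sequencing (polyadenylated RNA) of striatum, taken from mice whose strain is given as C57BL/6. The knock-in animals were heterozygous, with 1 altered huntingtin (Htt) allele, and each line is named after its CAG length: Q20, Q80, Q92, Q111, Q140 and Q175. Each line was sampled at 2, 6 and 10 months in groups of 8 libraries, with 4 females and 4 males except in Q80 at 2 months (3 females and 5 males) and Q20 at 10 months (5 females and 3 males). Wild types at 2 and 10 months had been housed with Q20 mice. At 6 months every line had a wild-type group of 8 from its own housing. Each knock-in line is 1 allele on 1 background, so repeat length and any other difference between the lines cannot be told apart, and Q20, whose repeat is in the range of healthy people, served as the reference.

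As background, somatic expansion is the gain of CAG units in the cells of a living animal, and it is strong in the striatum of Huntington disease. Mismatch repair is needed for it: MutS complexes bind extruded repeat loops, MutL complexes recruited by them nick the DNA, and gap filling and ligation can then fix extra units in place. The nuclease Fan1 restrains expansion, and variants near several of these genes are linked to the age of onset in people. These are proteins that act at low abundance, and an mRNA level is not a measure of repair activity.

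Within the family, Msh3 pairs with the common MutS partner to form MutSβ, which binds loops of several bases, and Msh6 forms MutSα, which binds base mismatches and the smallest loops. Mlh3, Pms1 and Pms2 are the alternative partners of the MutL complexes MutLγ, MutLβ and MutLα. Lig1 is the replicative DNA ligase, and Ogg1 is the glycosylase that removes oxidised guanine. Their Ensembl IDs in the tables are ENSMUSG00000014850 (Msh3), ENSMUSG00000005370 (Msh6), ENSMUSG00000021245 (Mlh3), ENSMUSG00000026098 (Pms1), ENSMUSG00000079109 (Pms2), ENSMUSG00000033458 (Fan1), ENSMUSG00000056394 (Lig1) and ENSMUSG00000030271 (Ogg1).

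Sequences before gene starts are shown for Mlh3, which was called at 6 and 10 months. They are also shown for Pms1, which shares its start region with a gene on the opposite strand. Other members were called as well, such as Lig1, or had a called neighbour, such as Pms2, and no sequence is printed for them. The sequences come from the RefSeq promoter table of build GRCm38.p6, in which all 8 genes were found, and capitals mark matches to the searched letters. The searched motifs were the GC box GGGCGG, the NRF1 half-site GCGCATGC, the CCAAT box CCAAT and the TATA box TATAAA, on both strands with overlaps counted, in the 250 bases before the start. Among 32851 promoters of the same length, 32.7% held the GC box, 2.26% the NRF1 half-site, 33.9% the CCAAT box and 12.4% the TATA box. The 250 bases before 1 of the 2 annotated starts of Mlh3 (chr12:85270600-85270849, minus strand) held 1 NRF1 half-site and 1 CCAAT match. The 66 bases between the annotated starts of Pms1 and its head-to-head neighbour Ormdl1 (chr1:53297029-53297094, shown on the minus strand, reading toward Pms1) held 2 CCAAT matches, 1 on each strand.
Mlh3 promoter: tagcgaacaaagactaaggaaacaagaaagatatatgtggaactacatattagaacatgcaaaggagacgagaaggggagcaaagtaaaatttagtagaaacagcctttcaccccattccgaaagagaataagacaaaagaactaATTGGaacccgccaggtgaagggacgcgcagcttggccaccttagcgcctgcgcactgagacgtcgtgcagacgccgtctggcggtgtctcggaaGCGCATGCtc
Pms1 to Ormdl1: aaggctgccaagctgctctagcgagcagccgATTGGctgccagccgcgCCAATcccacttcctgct

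The Mlh3 window held 15 CpG dinucleotides, against a median of 6 over all promoters. The windows of Msh6, Pms2 and Ogg1 held 5, 2 and 2 GC boxes, and those of Msh6, Pms2 and Ogg1 held 1, 3 and 2 CCAAT matches. Of the 3 Lig1 windows, 1 held a GC box and 1 an NRF1 half-site. The Fan1 window held none of the searched motifs. A match of letters is a description and not a binding site, and the absence of one says only that the letters are not in the window.

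All 8 genes were expressed below or near the middle of the tissue's genes. Per length of transcript, the median over the 208 libraries in FPKM (fragments scaled to transcript length and library size, from the authors) was 5.81 for Msh3, 5.60 for Mlh3, 5.39 for Pms2, 4.14 for Msh6, 3.49 for Fan1, 3.17 for Ogg1, 2.80 for Lig1 and 1.53 for Pms1. The median of all tested genes was 6.43 FPKM at 2 months, 5.92 at 6 months and 6.30 at 10 months. The neighbours at the top of this order overlapped: Msh3 was above Mlh3 in 145 of 208 libraries, and Mlh3 was above Pms2 in 141. At the foot of the order Pms1 was below Lig1 in all 208 libraries.

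Levels of a single gene are given below as CPM, counts per 1000000 counts of a library, scaled with TMM factors. Library totals ran from 29.1 to 49.6 M counts (M, 1000000). All 8 genes passed the filter on low counts at each age, when 17006 genes (2 months), 17642 (6 months) and 17170 (10 months) were tested. Tests were edgeR's quasi-likelihood F test with Benjamini-Hochberg adjustment over all tested genes, and a gene was called at an adjusted p under 0.05. Libraries carry different codes in their labels, and females and males are different animals. The labels do not say outright that each library is a separate animal. The p-values therefore measure the spread between these libraries, part of which may be technical.

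Of the 56 libraries of 2 months, 7 stood apart: mitochondrial genes took 17.2% to 24.1% of their counts, and 11.4% to 14.9% of those of the other 49. They were Q20 males 2 and 3, Q80 male 5, Q92 males 3 and 4, Q111 female 2 and a wild-type female. Another library of 2 months, Q80 male 3, is labelled male and had 0 counts on Y-linked genes, where the other males had at least 3383 and the females at most 16. The comparisons of 2 months are therefore given with and without the 7 libraries. Across the series 9 of 10 markers of striatal medium spiny neurons were lower in Q175 than in Q20 at 6 and at 10 months, with summed levels at 6 months of 4682 to 5435 CPM against 8883 to 10540. In bulk tissue fewer cells of a type and less RNA per cell cannot be told apart.

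**Figure D1:**
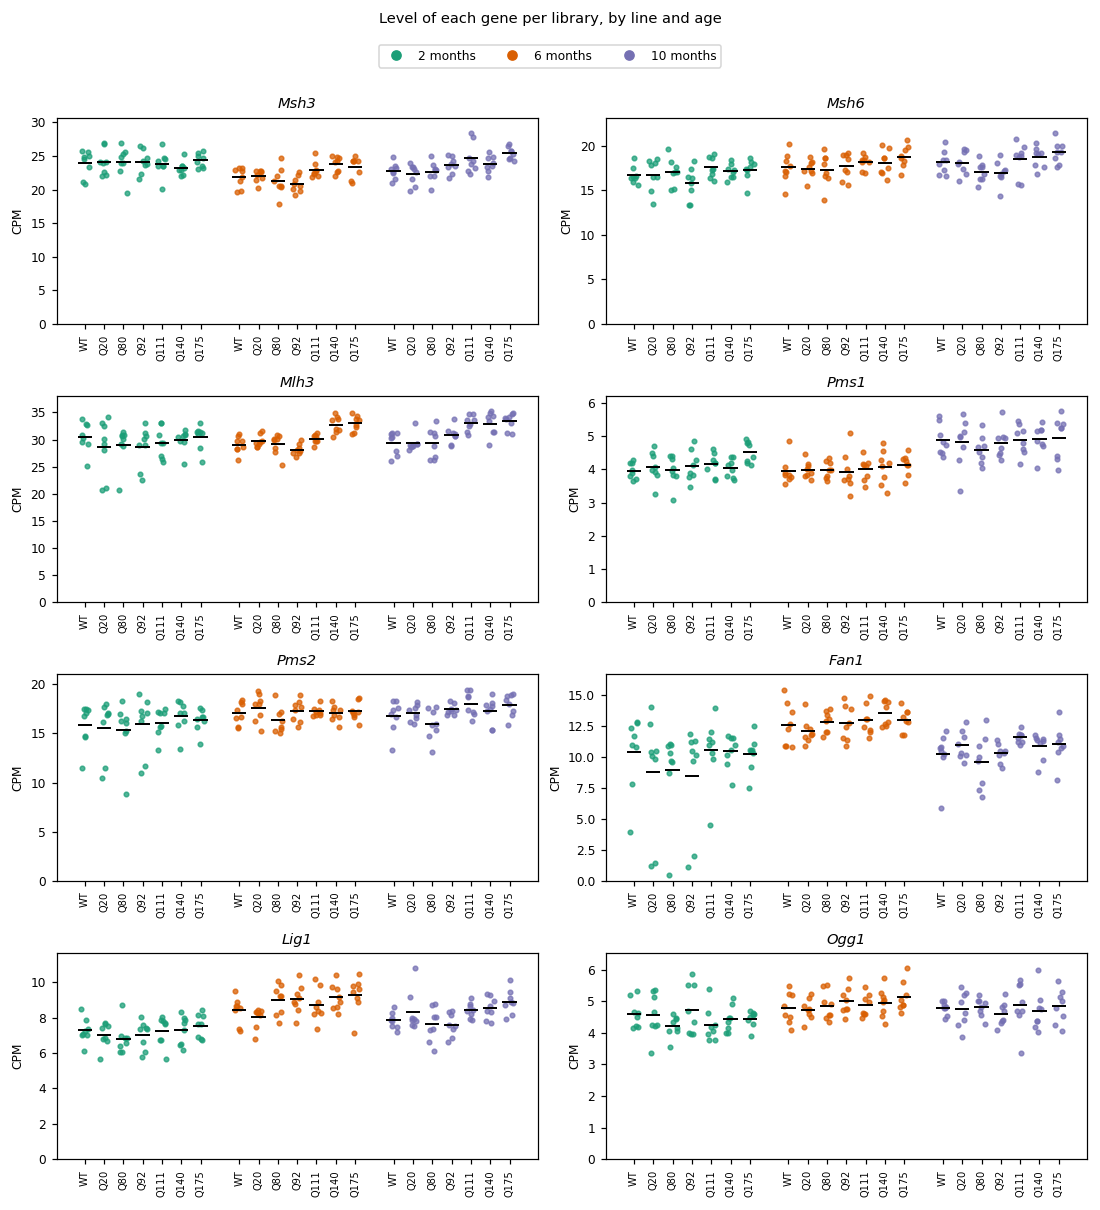
Level of each gene in CPM (vertical axis, from 0) for every library, by line and age, with wild types of the Q20 housing at the left of each age; short bars are group means of 8 libraries. Most groups overlap, Mlh3 sits higher in Q140 and Q175 at 6 months, and the separate low points of Fan1 at 2 months lie between 0.494 and 4.56 CPM.

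At 2 months none of the 8 genes differed between any line and Q20. For Q175 against Q20, 37 of the 17006 genes tested were called, or 0.218%, and 0 of 8 members is close to that share. The changes in Q175 ran from -0.04 for Ogg1 (SE 0.086, adjusted p = 0.904, edgeR) to 0.25 for Fan1 (SE 0.369, adjusted p = 0.862) on the log2 scale, and Pms1 stood at 0.15 (SE 0.070, adjusted p = 0.832). No member was called in Q80 (0.0118% of all genes), Q92 (0%), Q111 (0.0176%) or Q140 (0%), or in the trend with repeat length (0.353%).

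The widest spread at this age was that of Fan1, the structure-specific nuclease. In the 7 libraries with a high mitochondrial share Fan1 was at 0.494 to 4.56 CPM with a median of 1.42, and in the other 49 it was at 7.50 to 14.03 CPM with a median of 10.8. The ranges did not overlap, and the lowest Fan1 value of all belonged to the library with the highest mitochondrial share. The share of all tested genes without overlap between these sets of libraries was not counted. Pms2, the MutLα partner, was at 8.83 to 13.3 CPM in those 7 libraries and at 13.4 to 19.0 CPM in the others, again without overlap. Mlh3 was at 20.7 to 25.9 CPM against 25.5 to 34.2 CPM, with overlap. Ogg1 leaned the other way, with medians of 5.34 and 4.33 CPM and ranges of 4.05 to 5.88 and 3.38 to 5.53 CPM. Msh3, Msh6, Pms1 and Lig1 had overlapping ranges and lower medians in the 7 libraries, for example 3.69 against 4.19 CPM for Pms1. In 5 of the 7 libraries the median correlation with the others was under 0.97. Scores of cell type markers, means of standardised log2 CPM, moved with them as well: oligodendrocyte precursors scored -1.62 to -0.69 in the 7 and -0.64 to 0.86 in the others, astrocytes -1.77 to -0.39 and -0.89 to 1.13, and microglia 0.75 to 1.98 and -1.93 to 1.12. The libraries were picked by their mitochondrial share after the data were seen, and the part of any of these in the Fan1 values was not tested.

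**Figure D2:**
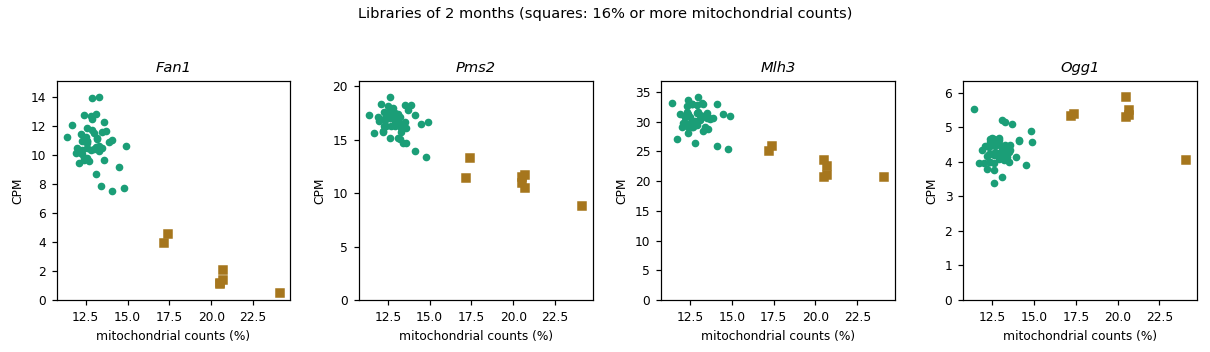
CPM of Fan1, Pms2, Mlh3 and Ogg1 (vertical axes, from 0) against the percentage of counts on mitochondrial genes (horizontal axes) in the 56 libraries of 2 months; squares are the 7 libraries at 16% or more. Fan1 lies at or below 4.56 CPM in all 7 squares and at or above 7.50 CPM in the circles.

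Because 2 of the 7 libraries are Q20 males, they enter every comparison with Q20 at 2 months. Without the 7 libraries the Fan1 change in Q175 went from 0.25 to -0.13 (adjusted p = 0.568, edgeR), Pms2 from 0.07 to -0.07 and Mlh3 from 0.09 to -0.04, none of them called. Pms1 went from 0.15 to 0.10 (adjusted p = 0.541, edgeR), and no member was called in that fit. Fan1 went from 0.06 to -0.15 in Q80, from -0.04 to -0.06 in Q92, from 0.29 to 0.012 in Q111 and from 0.27 to -0.11 in Q140, and no member was called in these lines. In the trend at 2 months Fan1 went from 0.021 to -0.0066 per 10 repeats, again with no member called. Leaving out Q80 male 3 left the Fan1 change at 0.25 and called no member. Within males alone Fan1 differed by 0.60 between Q175 and Q20 at 2 months without being called (adjusted p = 0.456, edgeR), where 2 of the 4 Q20 males stood at 1.17 and 1.42 CPM and the other 2 at 10.5 and 14.03 CPM. No member was called within males (0.0647% of all genes) or within females (0.0118%) at this age.

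At 6 months the MutL partner Mlh3 was the member with the smallest adjusted p. It was at 28.6 to 31.5 CPM in Q20 with a median of 29.5, at 30.6 to 34.8 CPM in Q140 with a median of 32.8, and at 31.0 to 35.0 CPM in Q175 with a median of 33.2. All 8 libraries of Q140 and all 8 of Q175 were above the Q20 mean of 29.7 CPM, and the ranges overlapped at the edge. Mlh3 rose by 0.14 in Q140 (SE 0.034, adjusted p = 0.000633, edgeR) and by 0.15 in Q175 (SE 0.034, adjusted p = 0.000174, edgeR), which is 10.9% in Q175. In Q80, Q92 and Q111 the group medians were 30.1, 28.0 and 30.1 CPM, and the changes of -0.03, -0.08 and 0.02 were not called.

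Lig1, which seals nicks after gap filling, was the other member called in Q175 at 6 months. It was at 6.79 to 8.45 CPM in Q20 with a median of 8.31 and at 7.16 to 10.4 CPM in Q175 with a median of 9.53. The lowest Q175 library lay within the Q20 range and the other 7 lay above the Q20 mean. Lig1 rose by 0.21 in Q175 (SE 0.066, adjusted p = 0.00624, edgeR) and by 0.19 in Q140 (SE 0.066, adjusted p = 0.0219). In Q80, Q92 and Q111 it stood 0.17, 0.17 and 0.12 above Q20, none of them called. Its median in those lines was 9.22, 8.99 and 8.51 CPM, and in the wild types of the Q20 housing it was 8.60 CPM, and the Q20 mean of 8.01 CPM was the lowest of the 12 groups of 6 months for this gene.

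The MutS partner Msh3 was called at 6 months against Q20 in Q140 and not in Q175. It was at 20.3 to 22.8 CPM in Q20 with a median of 22.4, at 22.1 to 25.0 CPM in Q140 with a median of 24.2, and at 21.01 to 25.1 CPM in Q175 with a median of 24.2. Both long-repeat lines overlapped Q20. The change was 0.11 in Q140 (SE 0.041, adjusted p = 0.0378, edgeR) and 0.08 in Q175 (SE 0.041, adjusted p = 0.106). Msh6 was 0.11 higher in Q175 without being called (SE 0.051, adjusted p = 0.0881, edgeR), with 7 of 8 libraries above the Q20 mean of 17.4 CPM. With scores of cortical, thalamic and choroid plexus markers in the model, Msh3 was called in Q175 as well (0.12, adjusted p = 0.0053, edgeR). None of those markers was called in Q175 at 6 months, and their median changes were 0.472 (cortical), 1.019 (thalamic) and 0.208 (choroid plexus), whose part in the Msh3 value was not tested. Whether the Q140 and Q175 values of Msh3 differ from each other was not tested.

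Fan1 was called only in Q140 among the lines of 6 months. It was at 10.9 to 14.3 CPM in Q20, at 12.4 to 14.6 CPM in Q140 and at 11.8 to 14.4 CPM in Q175. The rise in Q140 was 0.16 (SE 0.060, adjusted p = 0.0331, edgeR), and the value in Q175 was 0.11 (SE 0.060, adjusted p = 0.152). The difference between these lines was not tested. Pms2 stood at -0.03 in Q175 (SE 0.043, 95% interval -0.115 to 0.051), Pms1 at 0.05 (SE 0.074, -0.09 to 0.199) and Ogg1 at 0.12 (SE 0.057, adjusted p = 0.101, edgeR).

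These counts are read against the share of all genes. In Q175 at 6 months 2 of the 8 members were called, both higher, where 36.2% of all tested genes were called and 18% were called higher. In Q140 it was 4 of 8, all higher, where 27.9% were called and 13.8% were called higher. No member was called in Q80 (0.289% of all genes), Q92 (5.99%) or Q111 (12.8%). The median change of the 8 in Q175 was 0.109 on the log2 scale, and that of all tested genes was 0.010. All these comparisons share the same 8 Q20 libraries.

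**Figure D3:**
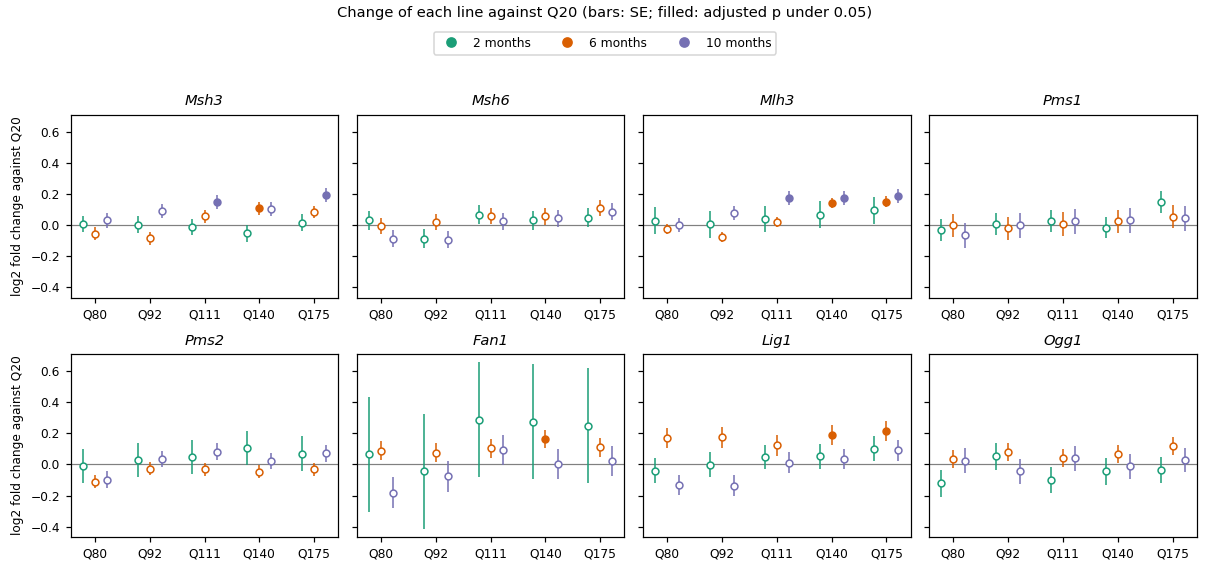
Log2 change of each gene in each line against Q20 (vertical axis), with the standard error as a bar and the age as the colour; filled points have an adjusted p under 0.05. Filled points appear for Mlh3 in Q140 and Q175 at 6 months and in Q111, Q140 and Q175 at 10 months, and for Msh3, Lig1 and Fan1 in fewer groups, while the bars of Fan1 at 2 months are the widest.

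At 10 months Mlh3 was called in the 3 longest repeats. It was at 28.1 to 33.0 CPM in Q20 with a median of 28.9, and 7 of the 8 libraries lay at or below 29.3 CPM. It was at 30.8 to 34.8 CPM in Q111, at 28.95 to 35.2 CPM in Q140 and at 31.1 to 34.9 CPM in Q175, with medians of 33.3, 33.8 and 33.9 CPM. Every library of Q111 and Q175 was above the Q20 mean of 29.4 CPM, and 1 Q20 female lay inside their ranges. The rises were 0.17 in Q111 (SE 0.045, adjusted p = 0.0053, edgeR), 0.17 in Q140 (SE 0.045, adjusted p = 0.00398) and 0.19 in Q175 (SE 0.045, adjusted p = 0.00132). In Q140 at 10 months 4 of 6 choroid plexus markers were called higher, with a median change of 1.001, where 10.9% of all genes were called higher. The part of this in the Q140 values of 10 months was not tested.

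Msh3 at 10 months gave the clearest separation from Q20 of any member. It was at 19.8 to 23.9 CPM in Q20 with a median of 22.9 and at 24.3 to 26.8 CPM in Q175 with a median of 25.5, so the 2 groups did not overlap. The share of all tested genes that separated in this way was not counted. Msh3 was at 21.03 to 24.88 CPM in the wild types of 10 months, whose highest library lay inside the Q175 range. It was at 22.3 to 28.5 CPM in Q111 with a median of 24.1 and at 21.8 to 25.7 CPM in Q140 with a median of 23.7, both overlapping Q20. The change was 0.20 in Q175 (SE 0.046, adjusted p = 0.000901, edgeR), or 14.5%, and 0.15 in Q111 (SE 0.046, adjusted p = 0.0203). In Q140 it was 0.10 and not called (adjusted p = 0.106, edgeR).

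The other 6 members were not called in any line against Q20 at 10 months. Lig1, which was called at 6 months, stood at 0.09 in Q175 (SE 0.066, adjusted p = 0.344, edgeR) with 7.94 to 10.1 CPM against 7.55 to 10.8 CPM in Q20. Against the wild types of 10 months, at 7.19 to 8.61 CPM, Lig1 was called in Q175 with 0.18 (adjusted p = 0.0357, edgeR), as were Mlh3 (0.18, adjusted p = 0.00176) and Msh3 (0.16, adjusted p = 0.00565), 3 of 8 where 24.6% of all genes were called. Fan1 stood at 0.02 (SE 0.097), Msh6 at 0.09 (SE 0.054), Pms1 at 0.04 (SE 0.081), Pms2 at 0.07 (SE 0.053) and Ogg1 at 0.03 (SE 0.080). The counts were 2 of 8 in Q175 (24.5% of all genes called, 12.4% called higher), 2 of 8 in Q111 (12.5%, 5.58% higher), 1 of 8 in Q140 (22.5%, 10.9% higher) and 0 in Q80 (0.122%) and Q92 (1.12%). The difference of the Q175 change between ages was tested for each member and none passed, for example 0.17 for Msh3 between 10 and 2 months (adjusted p = 0.1, edgeR) and -0.14 for Lig1 between 10 and 6 months (adjusted p = 0.999). Over all genes 6.43% were called between 10 and 2 months, 7.93% between 6 and 2 months and 0.0112% between 10 and 6 months.

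A linear trend over the 6 knock-in lines took the libraries as independent, although repeat length varies only between lines. Per 10 repeats at 6 months, Mlh3 rose by 0.012 (SE 0.0025, adjusted p = 6.4e-05, edgeR), Lig1 by 0.012 (SE 0.0039, adjusted p = 0.00845), Msh3 by 0.0088 (SE 0.0029, adjusted p = 0.0137) and Msh6 by 0.0073 (SE 0.0030, adjusted p = 0.0487). Without the Q175 libraries Msh3 (0.0088, adjusted p = 0.106, edgeR) and Msh6 (0.0054, adjusted p = 0.376) were not called. Without the Q20 libraries Lig1 (0.0056, adjusted p = 0.513, edgeR) and Msh6 (0.0108, adjusted p = 0.0776) were not called, while Mlh3 and Msh3 were. Over all 6 lines Fan1 missed the threshold with 0.0084 (adjusted p = 0.0532, edgeR). The trend over all 6 lines thus called 4 of 8 members, all higher, where 39.4% of all genes were called and 19.9% were called higher. At 10 months Mlh3 rose by 0.0145 per 10 repeats (adjusted p = 3.75e-05, edgeR) and Msh3 by 0.012 (adjusted p = 0.000472), 2 of 8 where 33.4% of all genes were called and 17.2% were called higher. The group means did not rise at each step: at 6 months Mlh3 and Msh3 were lowest of the 6 lines in Q92, with means of 28.2 and 20.8 CPM, below the Q20 means of 29.7 and 22.1 CPM.

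Against wild types from the same housing at 6 months, the reference changes and the picture of some members with it. In Q175 Mlh3 was 0.12 higher (SE 0.034, adjusted p = 0.00415, edgeR), Lig1 0.19 higher (SE 0.065, adjusted p = 0.019) and Ogg1 0.19 higher (SE 0.058, adjusted p = 0.00642), 3 of 8 where 31.8% of all genes were called and 15.7% called higher. Ogg1 was at 3.73 to 5.25 CPM in those wild types with a median of 4.46, at 4.64 to 6.05 CPM in Q175 with a median of 4.98, and at 4.18 to 5.22 CPM in Q20 with a median of 4.73. The wild types of the Q175 housing had the lowest Ogg1 mean of the 12 groups of 6 months, 4.51 CPM. In Q140 Mlh3 was 0.09 higher (adjusted p = 0.0332, edgeR) and Lig1 0.03 higher (adjusted p = 0.774), 1 of 8 where 24.2% were called and 12.4% called higher.

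In Q111 the member called against its own wild types was Msh3, 0.15 higher (SE 0.041, adjusted p = 0.00763, edgeR), 1 of 8 where 8.94% were called and 4.28% called higher. These wild types were at 17.7 to 22.2 CPM, the lowest mean of Msh3 in all 26 groups at 20.6 CPM, and Q111 was at 21.9 to 25.5 CPM, so the ranges overlapped only between 21.9 and 22.2 CPM. Scores of thalamic markers ran from -0.93 to 3.19 in these wild types and from -0.92 to 1.14 in Q111. The part of this in the Msh3 value was not tested. No member was called in Q80 or Q92 against their own wild types (0.051% of all genes in each). Q20 itself differed from its wild types in no member at 2 months (0% of all genes called), 6 months (0.0227%) or 10 months (0.0116%). The largest of those differences outside 2 months was 0.09 for Lig1 at 10 months (adjusted p = 0.972, edgeR).

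Between the sexes, adjusted for group, 3 members were higher in females at 6 months. The differences were 0.09 for Ogg1 (SE 0.024, adjusted p = 0.0052, edgeR), 0.05 for Msh3 (SE 0.017, adjusted p = 0.0192) and 0.05 for Pms2 (SE 0.018, adjusted p = 0.0498), over 96 libraries, where 18.5% of all genes were called and 9.81% were higher in females. Msh6 was lower in females by -0.06 without passing (adjusted p = 0.0551, edgeR). No member was called between the sexes at 2 months (0.923% of all genes) or 10 months (1.28%). At 2 months 157 genes were called between the sexes, 399 without the 7 libraries of high mitochondrial share and 692 without those under 0.97 correlation, and Fan1 stood at 0.16, -0.04 and -0.12, not called in any of them. The Q175 change itself differed between the sexes in no member at any age and in 0% of all genes at each age. At 6 months Lig1 stood at 0.32 in males (SE 0.088, adjusted p = 0.00344, edgeR) and at 0.10 in females (adjusted p = 0.468), and the difference of -0.22 did not pass (adjusted p = 0.889). Mlh3 was called at 6 months in females (0.13, adjusted p = 0.0403, edgeR) and in males (0.17, adjusted p = 0.00592), so 1 of 8 members was called in females, where 19.8% of all genes were called and 9.19% called higher, and 2 of 8 in males, where it was 25.7% and 12%. At 10 months Mlh3 (0.20, adjusted p = 0.0185, edgeR) and Msh3 (0.18, adjusted p = 0.0433) were called in females, where 14% of all genes were called and 6.11% called higher. In males, where 8.65% were called, they stood at 0.18 and 0.22 and no member was called.

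Several of the 8 genes overlap or adjoin another gene in the GENCODE M21 annotation. Whether counting used strand is not given in the sources used here, so reads of overlapping genes on opposite strands cannot be told apart. How reads shared by overlapping genes on the same strand were assigned is not given either.

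Pms1 and Ormdl1, a regulator of sphingolipid synthesis, start head to head across the 66 bases printed above. Ormdl1 was at 6.02 to 7.31 CPM in Q20 and 6.99 to 8.35 CPM in Q175 at 6 months, with all 8 Q175 libraries above the Q20 mean. It rose by 0.23 at 6 months (SE 0.053, adjusted p = 0.000373, edgeR) and by 0.20 at 10 months (SE 0.058, adjusted p = 0.00875). Pms1 was at 3.69 to 4.47 CPM in Q20 and 3.58 to 4.59 CPM in Q175 at 6 months, and its changes of 0.05 and 0.04 were not called. The difference between the 2 genes was not tested.

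Pms2 overlaps Rsph10b, a radial spoke gene of cilia, on the same strand. Rsph10b was at 3.66 to 5.99 CPM in Q20 and 3.58 to 4.71 CPM in Q175 at 6 months, and at 4.35 to 5.42 CPM and 2.99 to 4.54 CPM at 10 months, with all 8 Q175 libraries below the Q20 mean at both ages. It fell by 0.26 at 6 months (SE 0.080, adjusted p = 0.00612, edgeR) and by 0.41 at 10 months (SE 0.081, adjusted p = 0.000102), while Pms2 stood at -0.03 and 0.07. Aimp2, a part of the tRNA synthetase complex that starts head to head with Pms2, stood at -0.0062 and 0.07. Fbxo11, which overlaps Msh6, Camk1, which overlaps Ogg1, Zswim9, which overlaps Lig1, and Gm20457, beside Fan1, were not called in Q175 at either age. Of the other genes that overlap or adjoin a member, Mir6938, Gm17135 and Gm15492 had too few counts to be tested.

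**Figure D4:**
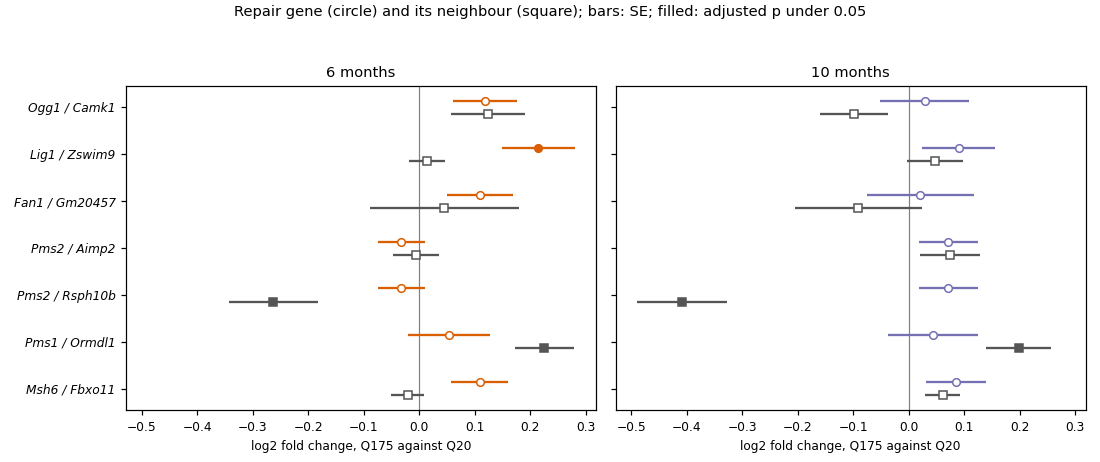
Log2 change in Q175 against Q20 (horizontal axis) of a member (circle) and of a gene that overlaps or adjoins it (square) at 6 and 10 months, with standard errors as bars and filled marks for an adjusted p under 0.05. Ormdl1 is filled above 0 while Pms1 is open, and Rsph10b is filled below 0 while Pms2 is open at both ages.

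Other repair genes give the setting of these changes, and their counts are read against all tested genes in Q175, of which 18% rose and 18.2% fell at 6 months and 12.4% rose and 12.1% fell at 10 months. Of the partners of mismatch repair, 16 of 17 listed genes were tested at 6 months in Q175, and 4 rose and 3 fell, close to the 36.2% of all genes called. The clamp loader subunits Rfc3 and Rfc2 rose by 0.20 (SE 0.074) and 0.17 (SE 0.028), the single-strand binding subunit Rpa1 rose by 0.12 (SE 0.027) and the sliding clamp Pcna by 0.09, while Rfc5 fell by 0.44 (SE 0.049), Rpa3 fell by 0.21 (SE 0.059) and the meiotic Msh5 fell by 0.51 (SE 0.17). Subunits of the same complex thus differed in sign. At 10 months 6 of 16 rose and 1 fell, where 24.5% of all genes were called. The gene that fell was Rfc5, by 0.38 (SE 0.056).

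Of 20 base excision and single-strand break repair genes, the pathway of Ogg1, 3 rose and 3 fell at 6 months, no more than the 36.2% of all genes. The glycosylase Nthl1 rose by 0.18 (SE 0.075), the flap nuclease Fen1 by 0.14 (SE 0.043) and Tdp1 by 0.11 (SE 0.043). The thymine glycosylases Mbd4 and Tdg fell by 0.26 (SE 0.049) and 0.10 (SE 0.027), and Lig3 fell by 0.09 (SE 0.026). Lig3, which seals single-strand breaks, thus moved against Lig1, though the difference between them was not tested. At 10 months Fen1, Tdp1 and Smug1 rose and Mbd4 fell among 19 tested, with Fen1 higher by 0.31 (SE 0.056, adjusted p = 2.13e-05, edgeR).

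Of 12 Fanconi crosslink repair genes, the pathway of the Fan1 partners, 1 rose and 3 fell at 6 months, again close to 36.2%. The ubiquitin-conjugating enzyme Ube2t rose by 0.59 (SE 0.17), and Fancb, Fancd2 and Fance fell by 0.71 (SE 0.088), 0.39 (SE 0.082) and 0.14 (SE 0.055). Fancd2, the protein that recruits Fan1 to stalled forks, fell by 0.51 at 10 months (SE 0.12, adjusted p = 0.00146, edgeR), when Fan1 stood at 0.02. Of 13 nucleotide excision repair genes 1 rose and 4 fell at 6 months, also close to 36.2%: the helicase gene Ercc3 rose by 0.16 (SE 0.030), and Ercc1 fell by 0.22 (SE 0.037), Ercc6 by 0.20 (SE 0.039), Xpc by 0.11 (SE 0.047) and Ddb2 by 0.11. Of 5 other genes linked to onset or repeats only Rrm2b, a ribonucleotide reductase subunit, was called at 6 months, 0.19 higher (SE 0.031, adjusted p = 5.77e-07, edgeR). The median changes of these lists at 6 months lay between -0.010 and 0.101, where that of all genes was 0.010.

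**Figure D5:**
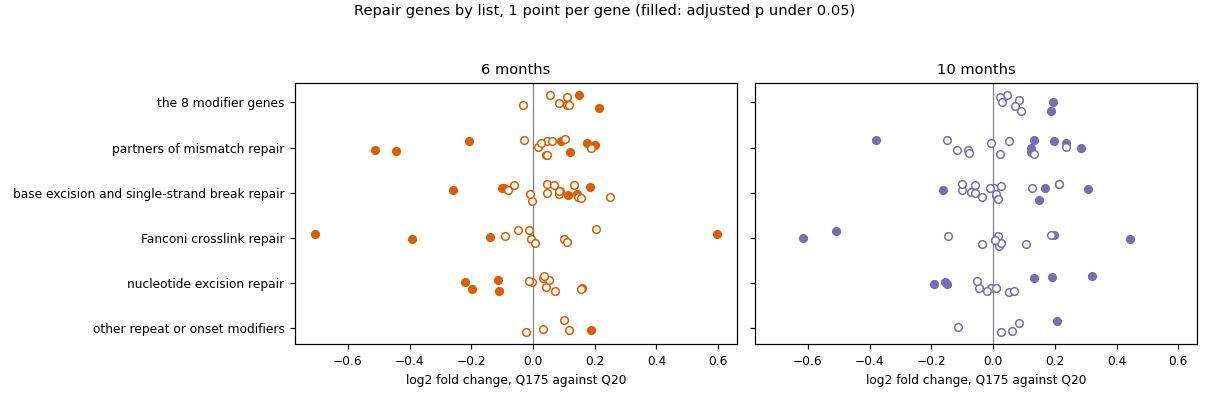
Log2 change in Q175 against Q20 (horizontal axis) at 6 and 10 months for the 8 modifier genes and for 5 lists of other repair genes, 1 point per gene, filled at an adjusted p under 0.05. The filled points of the 8 modifier genes lie between 0 and 0.25. The list of other repeat or onset modifiers has 1 filled point at each age, also above 0. The remaining lists hold filled points on both sides, down to -0.71 for Fancb at 6 months.

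Since Lig1, Msh6 and several partners serve DNA replication, markers of dividing cells were read beside them. Of 6 cycling-cell markers none was called in Q175 at 6 months, and their summed level was 6.63 to 12.6 CPM in Q175 and 7.23 to 11.8 CPM in Q20. Their median change was 0.298, where that of all genes was 0.010, and 1 of the 6 was called higher in the trend at 6 months. At 10 months 1 rose and 1 fell, with a median of 0.184. Their part in the Lig1 change was not tested. Of the glial and vascular markers in Q175 at 6 months, 3 of 7 for oligodendrocytes, 2 of 6 for astrocytes, 2 of 7 for microglia and 2 of 4 for endothelial cells were lower and none was higher, where 18.2% of all genes were lower, while 2 of 4 for oligodendrocyte precursors were higher. With scores of the oligodendrocyte, astrocyte, microglia and endothelial markers in the model, Mlh3 and Lig1 stayed called in Q175 at 6 months and Msh6 was called as well (0.14, adjusted p = 0.0366, edgeR). In the same model Msh3 at 10 months fell to 0.13 and missed the threshold (adjusted p = 0.0501, edgeR), and none of the 8 genes passed in the trend at 6 months, where Mlh3 stood at 0.0068 and Msh3 at 0.0040 per 10 repeats, Lig1 at 0.0106 and Msh6 at 0.0066. The part of any cell type in these changes was not tested.

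By group means of the 12 groups of 6 months, the genes most like Mlh3 were Nalcn, Ibtk and Taf1 with Pearson correlations of 0.982, 0.975 and 0.973. Those most like Msh3 were Nipal3 (0.971), Rab11fip2 (0.947) and Arid4b (0.939), and those most like Msh6 were Mtrf1l (0.953), Fam161b (0.951) and Fbxo28 (0.944). Those most like Lig1 were Col5a3 (0.921), Agpat4 (0.918) and Traf4 (0.911). Among the members, Mlh3 and Msh3 had the highest correlation of any pair at 0.877, followed by Ogg1 and Lig1 at 0.811, and Pms2 and Mlh3 had one of -0.025. These values describe 12 means that come from the same libraries, and they were picked as the highest of many.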

How the data were processed

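RNA was sequenced from 208 striatum libraries, with CASAVA 1.8.2 listed per the submitters' processing notes. The aligner, build and counting strand were not given in the sources used here. Per gene, the authors deposited expected counts, estimated reads per gene of which 32.7% are not whole numbers, and they were rounded to whole numbers before fitting. FPKM values, deposited by the authors, served for levels between genes. Libraries were grouped by line, age and housing from the labels. Each age was fitted with edgeR 4.0.16 in R 4.3.3: filterByExpr (minimum count 10, minimum total 15), TMM factors, a robust quasi-likelihood model with 1 term per group and sex, and Benjamini-Hochberg adjustment over all genes, with calls at 0.05. The standard error is the log2 change over the square root of F, and intervals are 1.96 SE on each side. The trend used the knock-in libraries. Alternatives were DESeq2 1.42.0, limma 3.58.1 on log2(FPKM + 1), RLE factors, no filter, a replicate block and marker scores as covariates. Others were the L code as a covariate, other references and left-out libraries. The L code is the letter L with a number in each library's label. Many libraries share the same L code, and the labels do not give its meaning. Fits without libraries at 16% or more mitochondrial counts, and without the library lacking Y-linked counts, were chosen after the data were seen. The edgeR fits were also run on simulated counts of the 6-month groups, and the outcome is not given here. Neighbours are genes that overlap a member or lie within 1000 bases in GENCODE M21. All 8 members, those neighbours, up to 3 rises and 3 falls of each repair list in Q175 at 6 months, and the 3 genes most correlated with each member called in the 6-month trend were named. Pcna, Ddb2 and Smug1 were named after their values were seen. Some results under this rule are not reported here. The members and lists were chosen with earlier results of these data known. Gene symbols were found for 37607 of 39179 IDs, and figures were drawn with matplotlib 3.10.9.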

Additional observations from a re-analysis of the deposited data

Results flagged for a closer look

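Of 208 sets of 8 libraries (8 genes in 26 groups), 18 had 1 library whose distance from the nearest other exceeded 0.526 of the range of its group. Chance gives about 1 in 20 such sets. Of these, 6 concern libraries of 2 months with a high mitochondrial share. Q80 male 5 was the lowest of its group for Fan1 (0.494 CPM), Pms2 (8.83 CPM), Mlh3 (20.7 CPM) and Pms1 (3.09 CPM), where the nearest other libraries stood at 8.70, 15.04, 28.7 and 3.81 CPM. Q111 female 2 was lowest for Fan1 (4.56 CPM against 9.82 CPM), and a wild-type female was lowest for Pms2 (11.4 CPM against 14.7 CPM).

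At 10 months a wild-type female had Fan1 at 5.90 CPM, the next being 10.0 CPM, and 16.1% of its counts were mitochondrial, one of 2 libraries of 6 and 10 months at 16% or more. Q20 female 5 of 10 months had Mlh3 at 33.0 CPM where the other 7 lay at 28.1 to 29.3 CPM. The Mlh3 change in Q175 was 0.178 to 0.205 with each library of the 2 groups left out in turn and was called each time.

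Among the libraries of 6 months, Lig1 was lowest in Q175 female 3 (7.16 CPM, next 8.90 CPM) and in wild-type male 3 of the Q111 housing (7.10 CPM, next 8.34 CPM). Fan1 was highest in Q20 female 1 (14.3 CPM, next 12.5 CPM) and Pms2 in Q111 male 4 (18.3 CPM, next 17.5 CPM). Msh3 was lowest in wild-type male 1 of the Q111 housing (17.7 CPM, next 20.2 CPM), a library of the reference of the called Q111 change at 6 months. Pms1 was highest in wild-type male 4 of the Q20 housing (4.86 CPM, next 4.08 CPM) and lowest in wild-type female 3 of the Q140 housing (2.67 CPM, next 3.70 CPM). The rest were at 2 months: Msh3 in Q140 male 1 (25.3 CPM, next 23.5 CPM), Mlh3 in Q140 female 4 (25.5 CPM, next 29.5 CPM) and Lig1 in Q80 male 2 (8.70 CPM, next 6.96 CPM).

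For Ogg1 at 2 months every female of Q175 lay on one side of the female Q20 mean and every male on the other side of the male Q20 mean. The Q175 change was 0.15 in females and -0.21 in males, and the difference of 0.36 did not pass (adjusted p = 0.463, edgeR). Q20 males 2 and 3, with a high mitochondrial share, stood at 5.34 and 5.31 CPM and are among the 4 males of the reference.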

How the results depend on the processing

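Of 912 values of single members under alternatives, 879 kept their side of the threshold, 13 lost a call, 20 gained one and 0 reversed a called direction, while 58 values that were not called changed sign. Many of these fits left out only a single library, and most values were not called in the main fit, so few calls could be lost. Most of the 13 lost calls were in the trend at 6 months. In Q175 at 6 months 2 members were called, among 6382 genes called in all. With limma on log2(FPKM + 1) it was 6 members among 7224 genes, and the median of all genes stood at 0.067 in place of 0.010. The trend at 6 months called 4 members among 6943 genes, and 0 among 4853 with glial and vascular scores. Without Q20 libraries it called 2 among 6044, when Lig1 went to 0.0056 (adjusted p = 0.513, edgeR). The Msh6 trend (adjusted p = 0.0487, edgeR) was lost under RLE factors (adjusted p = 0.0558), without the filter (0.0573) and with the L code (0.066). It was also lost with cortical, thalamic and choroid plexus scores (0.0547), without Q175 (0.376) and without Q20 (0.0776), all edgeR. In Q175 at 10 months 2 members were called among 4212 genes, and 1 among 3625 with glial and vascular scores. The trend at 10 months called 2 members among 5743 genes. It called 4 among 4794 without Q20 and 4 among 6563 with limma on FPKM. The cause of these shifts was not tested. Leaving out each library of Q175 or Q20 in turn, Mlh3 ran from 0.139 to 0.165 and Lig1 from 0.185 to 0.268 at 6 months, both called in all 16 fits; Msh3 was called without Q175 female 4 (0.11, adjusted p = 0.0272, edgeR), and Msh6 without Q175 male 4 (0.14, adjusted p = 0.0303) or Q20 female 4 (0.13, adjusted p = 0.0485). At 10 months Msh3 ran from 0.172 to 0.214. At 2 months Fan1 ran from 0.075 to 0.416.

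Samples of the groups share only a replicate number: same-numbered deviations correlated by -0.181 to 0.027 at 2 months, 0.041 to 0.161 at 6 months (5 of 8 over 0.1, 3 best with their own number) and -0.073 to 0.109 at 10 months. With the replicate block, Q175 against Q20 called 2 members at 6 months and 2 at 10 months, Mlh3 at 6 months stood at 0.15, all genes called went from 6382 to 6874 at 6 months, and Fan1 passed in the 6-month trend (0.0085, adjusted p = 0.0146, edgeR).

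Counts over all genes moved most at 2 months, where none of the fits called a member. In Q175 there were 37 calls, against 8 with the L code, 11 with only the groups compared and 117 with glial and vascular scores. There were 79 against wild types, 84 without the high mitochondrial libraries, 22 with limma and 65 with DESeq2. Single libraries left out gave 22 to 46 (22 without Q175 female 4 or male 3, 23 without female 3). The trend of 60 calls became 13 with the L code, 126 with glial and vascular scores, 0 without Q175 and 193 without Q20. It became 141 without libraries under 0.97 correlation, 266 without the high mitochondrial ones and 103 with DESeq2. At 6 months the trend went from 6943 to 4282 without Q175, and at 10 months from 5743 to 3003 with glial and vascular scores.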
